A study of Caenorhabditis elegans with 609 samples.

Results

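ECA363 is a wild strain of the nematode Caenorhabditis elegans, represented here by 3 independently grown and prepared cultures among all the cultures of the series. Whole young adult hermaphrodites of each strain were harvested once the first embryo was seen on the plate, and their poly(A) RNA was sequenced. The 3 ECA363 cultures were compared with 605 cultures of all other wild strains with at least 2 cultures, and each strain entered as 1 mean. The remaining culture, of strain JU2800, stood alone in its strain and was left out. All strains, ECA363 included, were kept at 20 °C on agar plates seeded with the bacterial strain OP50, and no strain received a treatment. ECA363 was chosen by a measured value, the large mean distance of its expression to that of the other strains, so the differences below describe the strain and were not used as evidence for anything else.

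A young adult hermaphrodite has finished its last molt, carries sperm made during the last larval stage and has begun to ovulate. Cuticle collagens and other molting genes are switched on in pulses before each molt and are low between them, whereas vitellogenins, the yolk proteins, are made by the adult intestine for the oocytes. Inducible heat shock genes are close to silent in unstressed animals and rise by orders of magnitude under proteotoxic stress. In RNA from whole animals, fewer cells of a type and less RNA per cell cannot be told apart.

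The totals of estimated counts in the ECA363 cultures were 27563695, 28134612 and 31711957, near the median of 28771626 over all cultures (range 15460744 to 280254927). Across the 16445 genes and transposable elements tested, the Pearson correlation between ECA363 cultures ran from 0.983 to 0.990. The median SD over genes among the ECA363 cultures was 0.15 on the log2 scale, against a median of 0.20 in the other strains. The cultures were sequenced in pools 3, 4 and 6 of a single year, 1 in each. All 3 carry the code GZ_B8 in their titles, which 62 cultures of 25 strains share and whose meaning the labels do not state. Values within each pool and within this code are therefore given beside the results they touch.

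The Euclidean distance of the ECA363 mean to the other strain means averaged 135, the second highest value after 147 in NIC258 and ahead of 132 in CX11254. The median strain had a mean distance of 92.9. The strains nearest to ECA363 were JU1586 at 94.7, ECA812 at 95.2 and XZ1515 at 101, and its nearest neighbour was thus farther away than the median nearest neighbour of a strain, at 56.3. JU1586, ECA812, XZ1515 and CX11254 also have cultures with the code GZ_B8, as do 5 of the 10 strains nearest to ECA363.

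Expression is given as TPM divided by a factor for each culture (normalized TPM), and differences are on the log2(normalized TPM + 0.5) scale as ECA363 minus the mean of the other strains. This scale understates the change of genes with low values. The mean of another strain was taken on the log2 scale and turned back to normalized TPM. The error of a difference is its standard error (SE), which rests on the spread among strains. A gene was called when the Benjamini-Hochberg adjusted p of limma over all 16445 tests was under 0.05. In ECA363, 1015 were called higher (6.17% of those tested) and 215 lower (1.31%). The last gene inside this threshold was clc-1, with an adjusted p of 0.0498 and a difference of 1.17, and the first outside was lyst-1, with an adjusted p of 0.05 and a difference of 0.48, both from limma. The median difference was 1.66 over the genes called higher and -1.55 over those called lower.

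The excess of higher over lower calls changed with the filter on low levels and with the unit and the test. Among genes with a mean TPM of at least 5, 57 were called higher and 111 lower. With TMM-scaled CPM 264 were called higher and 270 lower, and with the quasi-likelihood test of edgeR on counts 427 and 231, whereas raw TPM without factors gave 1204 and 158. The median difference over all genes and elements tested was 0.12, so differences of that size are not specific to a gene. Of the genes called higher, 711 had a median under 1 normalized TPM in the other strains, against 11 of those called lower. The plot of ECA363 against the other strains shows this: most genes called higher lie at the low end of the scale.

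**Figure D1:**
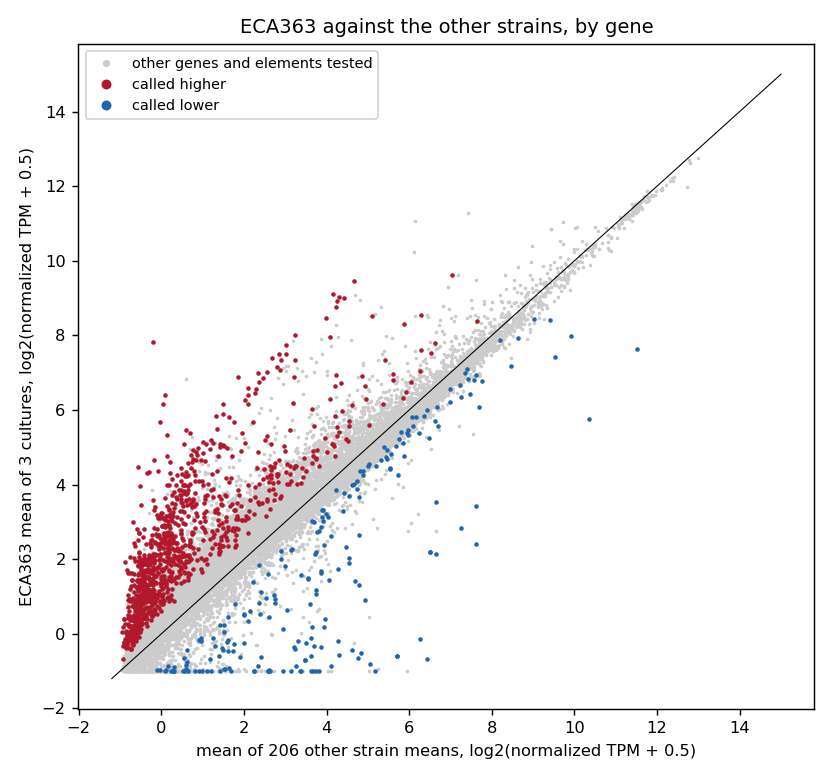
Mean of the 3 ECA363 cultures (vertical axis) against the mean of the other strain means (horizontal axis), both as log2(normalized TPM + 0.5), with 1 point for each of the 16445 genes and elements tested. The 1015 called higher (red) crowd at low levels of the other strains, where few of the 215 called lower (blue) lie.

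A stricter description counts genes whose 3 ECA363 cultures all lay beyond every other strain mean. There were 143 such genes above the other strains (0.87%) and 99 below (0.602%). Above or below every other strain refers, here and in what follows, to these strain means, and single cultures of other strains can lie further out. Without culture 2, 302 genes lay above, and without culture 3, 228. Among the genes beyond every other strain in all 3 cultures, 122 were also called higher and 78 also called lower. ECA363 was among the 10 highest strains for 3145 genes (19.1%) and among the 10 lowest for 1281 (7.79%). All of the 1015 genes called higher and the 215 called lower differed in the same direction in each of the 3 pools. There, the ECA363 culture was compared with 78, 88 and 93 cultures of other strains. The calls rest on these same 3 ECA363 cultures, so this agreement follows largely from the selection and is no independent support. The median difference of the genes called higher was 2.20 in the pool of culture 1, 1.42 in that of culture 2 and 1.74 in that of culture 3. Without culture 1, 621 genes were called higher. Pseudogenes were called more often than protein-coding genes, with 78 of 745 (10.5%) called higher and 21 (2.82%) lower, against 928 (5.95%) and 193 (1.24%) of 15596. Reads were pseudoaligned to the reference transcriptome with the single-nucleotide variants of each strain substituted, so alleles that diverge in other ways can be underestimated. Transcripts in hyper-divergent regions were kept here, and their part in the differences was not tested.

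The gene with the largest positive difference among those beyond every other strain was the pseudogene ZK546.7 on chromosome II. Its normalized TPM was 84.318, 62.872 and 67.987 in the 3 ECA363 cultures, whereas the median of the other strains was 0.386 and none exceeded 3.53. All 3 cultures lay above every other strain mean, and the difference was 6.13 ± 0.77 (SE). K10C2.7 on chromosome X was measured at 106.85, 123.31 and 121.94 normalized TPM. Its other strains lay between 1.37 and 16.545, around a median of 3.20, and the difference was 5.01 ± 0.43. Both genes kept their call among the strains with the code GZ_B8, with differences of 6.22 and 5.14. Both were picked as above every other strain mean, so this is no independent support.

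R03H10.6 had 57.7, 50.8 and 43.4 normalized TPM in ECA363 against a median of 0.431, and its highest other strain, CB4856, reached 27.013. T07H8.11 had 39.6, 46.8 and 33.2 against a median of 0.523. For both, the lowest ECA363 culture stood above every other strain mean. The closest approach among the highest genes was that of T06A10.2, at 27.4, 28.2 and 25.2 in ECA363 and 24.9 in ECA745. The cytochrome P450 gene cyp-37B1, of a family that oxidizes fatty acids and foreign compounds, had 30.8, 15.1 and 16.44 against a median of 0.153. Its highest other strain, NIC258, reached 7.37, and the difference was 4.63 ± 0.78. The antimicrobial peptide gene nlp-30, expressed in the epidermis, had 46.1, 18.4 and 14.7 against a median of 0.915 and a highest other value of 14.4. Culture 3 thus barely cleared the other strain means in nlp-30. The 15 highest genes had differences from 3.88 in lido-17 to 6.13 in ZK546.7, and 10 of them kept their call among the strains with the code GZ_B8. All 15 were picked as called and above every other strain mean, those of the code included. The kept calls follow largely from that selection and are no independent support.

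At the other end, C48E7.7 on chromosome I was measured at 0.205, 0 and 0.201 normalized TPM in ECA363. The other strains lay between 2.06 and 362, around a median of 93.6. The groups did not overlap, and the difference was -7.10 ± 1.31. The folate transporter family gene folt-2 on chromosome V (chrV:2872465-2875600, WBcel235) had 4.03, 5.71 and 4.81 normalized TPM in ECA363. The median over its other strains was 215 and their lowest value 10.9, in ECA745, with a difference of -5.20 ± 0.66. F23A7.8 on chromosome X was the most abundant of the 15 lowest genes, at 44.8, 66.7 and 50.2 in ECA363. In the other strains it ran from 332 to 8106, and no ECA363 culture came near that range. The difference of F23A7.8 was -4.598 ± 0.53.

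Several genes had no reads assigned to them in any ECA363 culture. Against a floor of 3 counts in each library, Y54G2A.50 was at least 125-fold lower than the median of the other strains, cyp-35A3 at least 155-fold, Y73F4A.1 at least 70.4-fold, the histone gene his-63 at least 23.2-fold and F10C1.3 at least 21.5-fold. These bounds cover counting error only. Y54G2A.50 and the F-box gene fbxc-45, of a family of ubiquitin ligase adaptors, are neighbours on chromosome IV (chrIV:2918029-2919784 and chrIV:2919827-2922243). The gene fbxc-45 had 0.146, 0.309 and 0.418 normalized TPM against 5.42 to 24.5 in the other strains. Both neighbours were thus far below every other strain. The gene cbp-3, a relative of the CREB-binding protein coactivators, had 0.331, 0.221 and 0.166 against a median of 24.8. The 15 lowest genes ran from -4.12 in T27E7.10 to -7.10 in C48E7.7, and 12 of them kept their call among the strains with the code GZ_B8. As for the 15 highest, the selection largely fixed this, and it is no independent support.

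**Figure D2:**
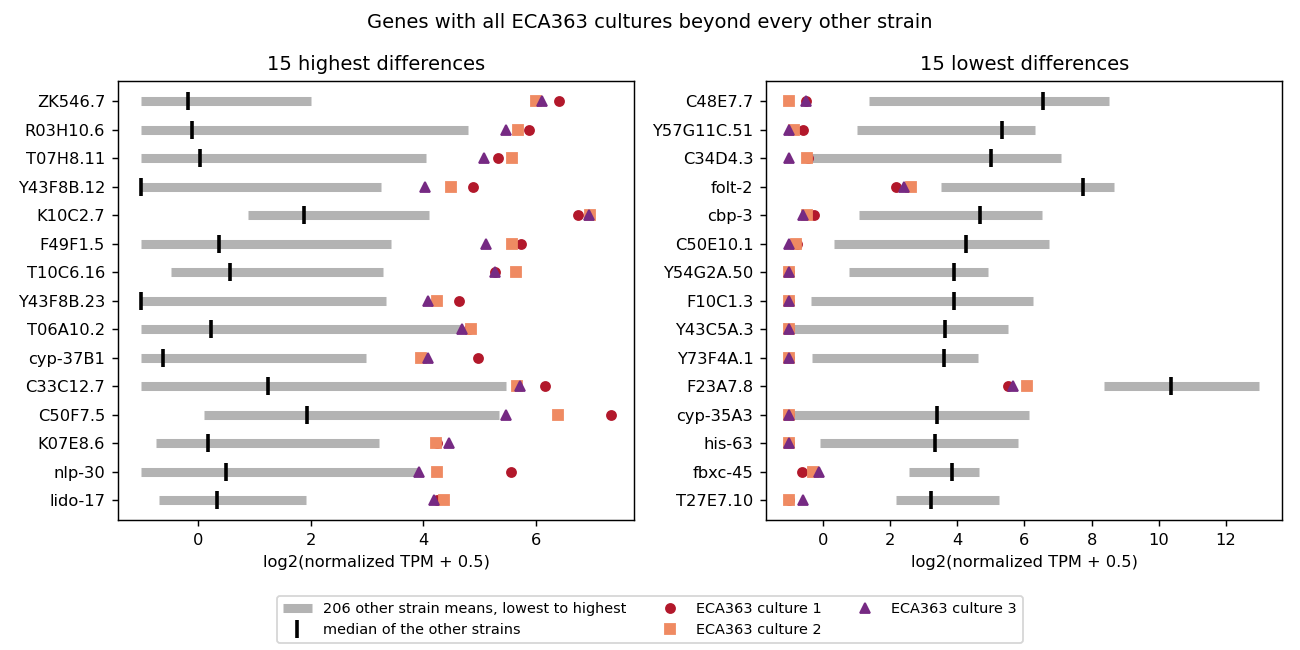
Levels, as log2(normalized TPM + 0.5), of the 15 genes with the highest and the 15 with the lowest differences among those called and beyond every other strain. Grey bars span the other strain means with the median as a black line, and the coloured points are the 3 ECA363 cultures, each of which lies outside the bar of its gene.

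Among gene groups, cuticle collagens stood highest. Of 147 collagens tested, 43 were called higher (29.3%, against 6.17% over all tested) and none lower, 77 placed ECA363 among the 10 highest strains (52.4%, against 19.1%) and 1 among the 10 lowest, and their median difference was 1.80 against 0.12 over all genes. The list score, the median over members of the value minus the median of the other strains, was 2.54, 1.52 and 2.18 in the 3 cultures. ECA363 ranked 6 among all strains for this score, below NIC258, JU1530, ECA812, QX1792 and JU1586. The other strains reached 2.80 in NIC258, so the score was high but not outside their range. The collagen col-73 had 1270.5, 348 and 774 normalized TPM against a median of 21.9, and the highest other strain had 664. Culture 2 lay inside the range of the other strains, and the difference was 4.79. The collagen col-138 behaved alike, with 981, 272 and 641 against a median of 15.3 and a highest value of 608.53.

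Other molting genes were high with the collagens. Of 109 molting cycle genes tested, 40 were called higher (36.7%, against 6.17% over all tested) and none lower, 73 had ECA363 among the 10 highest strains (67%, against 19.1%), and the median difference was 1.01. The score of 1.43, 0.68 and 1.11 in the 3 cultures placed ECA363 behind only NIC258 and CX11254. The gene grl-7, a hedgehog-related ground-like gene, had 73.8, 15.9 and 35.6 normalized TPM against a median of 1.10. Its relative grl-16 had 239, 64.3 and 199 against a median of 7.17. In both lists and in each of these genes culture 1 was the highest and culture 2 the lowest. The markers of the hypodermis and of yolk were mixed. The adult collagen col-19 differed by -0.06, whereas the collagen gene rol-6 had 153.9, 37.1 and 77.56 normalized TPM against a median of 3.005, a difference of 4.25. The yolk gene vit-2 differed by 0.00, with 2594, 2698 and 2880 normalized TPM against a median of 2786, but the other 5 yolk genes were lower, down to -1.93 in vit-4. Among molting markers, mlt-10 differed by 3.096 and noah-1 by 2.11, and the molting protease gene nas-37 by 0.28.

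With the molting score as a covariate, chosen after the values were seen, 560 genes were called higher and 399 lower, of which 227 and 136 were among the calls without it. The median difference of the collagens was then -0.32, and that of the molting genes 0.01. The covariate is the mean of these same molting genes, so their average difference was fixed in advance by the fit. The age of the animals at harvest was not estimated here. Among the 24 other strains with the code GZ_B8, the molting score had a median of 0.12 and a maximum of 1.09, and ECA363 ranked second. The corresponding median in the 182 strains without the code was -0.03.

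**Figure D3:**
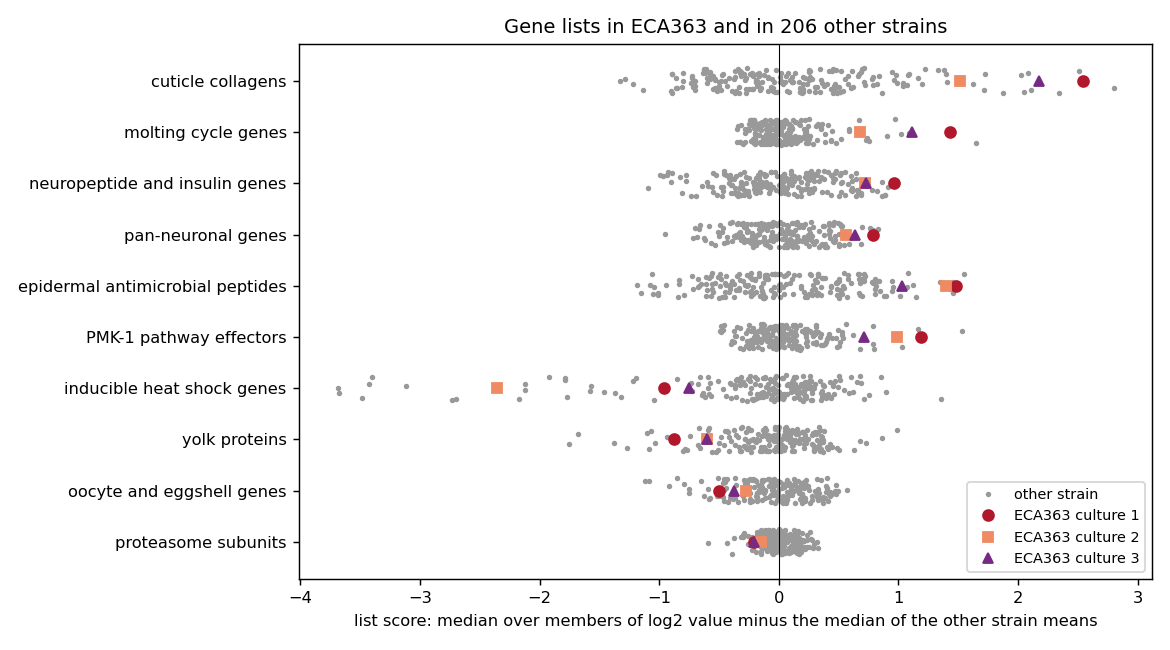
Scores of 10 gene lists, each the median over members of the log2 value minus the median of the other strain means, for the other strains (grey points) and the 3 ECA363 cultures (coloured). Collagen and molting scores of ECA363 lie at the upper end, where culture 2 is the lowest of the 3, and the heat shock score of culture 2 (-2.36) lies far from those of cultures 1 (-0.96) and 3 (-0.75).

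Few neuronal and peptide genes were called. Of 121 neuropeptide and insulin genes, 5 were called higher (4.13%, below the 6.17% over all tested) and none lower, 50 had ECA363 among the 10 highest strains (41.3%, against 19.1%), and the median difference was 0.81. Of 22 pan-neuronal genes none was called, in 12 ECA363 was among the 10 highest strains (54.5%, against 19.1% over all tested), and the median difference was 0.63. The prohormone convertase gene egl-3, which processes neuropeptides, had 42.6, 36.5 and 35.4 normalized TPM against a median of 16.7 and a highest other strain of 42.5. The neuronal gene rab-3, of synaptic vesicles, had 7.03, 8.46 and 7.57 against a median of 3.49. Neither gene was called. With the molting score as a covariate the medians became -0.40 for the neuropeptide list and -0.21 for the pan-neuronal list.

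Immune genes were mixed. Of 33 epidermal antimicrobial peptide genes, 5 were called higher (15.2%, against 6.17% over all tested), with a median difference of 1.15. Of 25 effectors of the PMK-1 p38 pathway, the main immune pathway of the intestine, 2 were called higher, a share of 8% near that over all tested, with a median of 0.87. None of either list was called lower. With the molting score as a covariate these medians became -0.43 and 0.06. On chromosome V the adjacent peptide genes nlp-34, nlp-31 and nlp-30 were all called higher. The call of nlp-30 was lost among the strains with the code GZ_B8, and also with the molting score as a covariate. The gene nlp-34 had 94.5, 26.1 and 53.4 normalized TPM against a median of 3.90 and a highest value of 50.4. For 37 lysozyme and saposin-like genes, which encode antimicrobial enzymes and pore-forming peptides, the list score of ECA363 was the highest of all strains. Their median difference was 0.66, and 0.04 with the molting score as a covariate. Of these genes 2 were called higher (5.41%) and 2 lower (5.41%, against 1.31% over all tested). The 2 directions were far apart. The saposin gene spp-2 had 88.8, 80.1 and 66.4 against a median of 16.066, while spp-17 had 171, 165 and 172 against a median of 761 and a lowest other strain of 254.

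The lysozyme gene lys-7, an antimicrobial gene known to act downstream of several immune pathways, was almost silent. Its normalized TPM in ECA363 was 0.451, 0.169 and 0.0398, against a median of 40.6, and the difference was -5.34. ECA363 was second from the bottom, with the lowest other strain at 0.129, and the plot of strain means shows a separate group of strains at low lys-7. Of 136 C-type lectins, 14 were called higher (10.3%, against 6.17% over all tested) and 2 lower (1.47%, against 1.31%), with a median of 0.37 that became -0.14 with the molting score as a covariate. The lectin gene clec-67 had 19.8, 16.7 and 10.995 against a median of 0.621 and a highest value of 9.06. Of 25 pals genes tested, many of which respond to intracellular pathogens, 1 was called higher (4%, below the 6.17% over all tested) and 1 lower (4%, against 1.31%). Their median was 0.08. The gene pals-22, a negative regulator of that response, was called lower, at 1.11, 1.13 and 1.47 normalized TPM against a median of 3.03, and was named after its values were seen. The gene pals-32 had 4.43, 4.13 and 3.29 against a median of 0.435 and a highest value of 3.09, and skr-5, of the same response, had 7.49, 8.28 and 4.90 against a highest value of 4.78. The genes clec-67, pals-32 and skr-5 lay above every other strain mean in each culture. Single cultures of other strains reached higher: culture 3 ranked 3 for pals-32 and 2 for skr-5 among the 94 cultures of its pool.

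Several inducible heat shock genes were low. The list of 15 heat shock genes tested also held constitutive chaperones, so its counts, median and score describe a mixed list. In it, 6 were called lower (40%, against 1.31% over all tested) and none higher, and the median difference was -0.86. Of these 6, 2 are identical copies with the same values. The hsp70 family gene F44E5.4 had 0.989, 0 and 0.526 normalized TPM in ECA363, against a median of 97.1 in the other strains. The small heat shock gene hsp-16.2 had 0.323, 0.151 and 0.0715 against a median of 25.3, and hsp-16.41 had 0.433, 0.135 and 0.639 against 25.2. This gene and the heat shock genes that follow were named after their values were seen. For hsp-16.1 (T27E4.2) the values were 10.4, 2.54 and 10.5 against 185, and for the identical copies of hsp-16.48, whose reads cannot be told apart, 7.34, 1.34 and 6.24 against 108.3. No ECA363 mean of hsp-16.2, hsp-16.1 (T27E4.2) or hsp-16.48 was above any other strain mean. The other members of the list were not called. F44E5.5, the neighbour of F44E5.4, had 28.321, 4.027 and 19.157 normalized TPM against 22.704, a difference of -0.54, while hsp-70 differed by -2.16 and hsp-12.3 by 0.78. The constitutive chaperones differed less: hsp-90 by -0.28, hsp-1 by -0.21, hsp-110 by -0.30 and dnj-13 by -0.26, and hsp-43 by 0.01.

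These heat shock values moved with the code in the titles. In the 24 other strains with the code GZ_B8 the median of F44E5.4 was 16.46 normalized TPM, against 105.6 in the 182 strains without it, and the median of hsp-16.2 was 1.66 against 27.2. Within the code the difference of F44E5.4 was -3.94 and that of hsp-16.2 -1.88, and neither was called, while F44E5.5 differed by 1.68 and hsp-70 by 0.40. The list score of ECA363, constitutive members included, was -0.83. It was above the median of -2.02 of these 24 strains and ranked 6 among the 25 strains. The strains without the code had a median of 0.06. The code and the strain can be compared only within those 25 strains, and what the code stands for was not tested. The genes folt-2, F23A7.8 and C48E7.7 differed within the code by -5.12, -4.36 and -6.26. They were picked as below every other strain mean, those of the code included, so being lowest there followed from the selection. The difference of lys-7 within the code was -5.65 and that of sago-2 was 3.16, and neither was called among 25 strains.

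**Figure D4:**
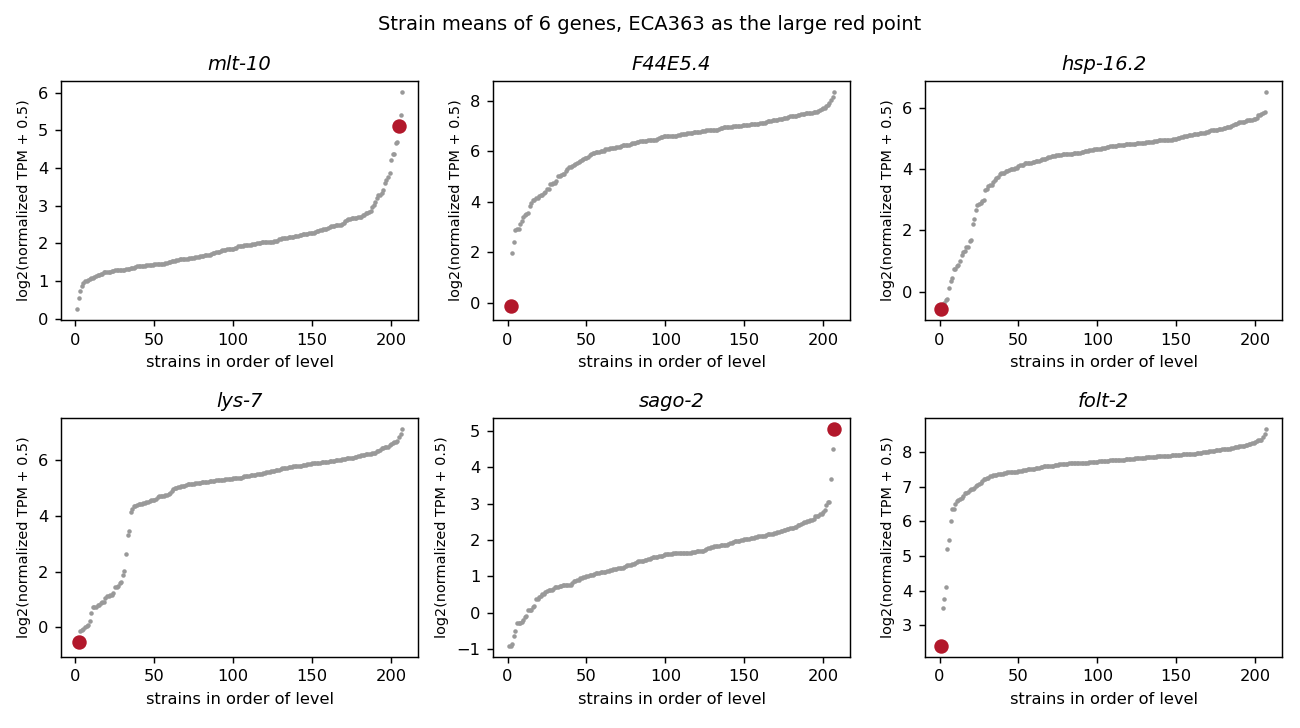
Strain means, as log2(normalized TPM + 0.5), of 6 genes in all strains ordered by level, with ECA363 as the large red point. ECA363 lies near the top in mlt-10, at the top in sago-2, at the bottom in folt-2 and hsp-16.2, and second from the bottom in F44E5.4 and lys-7.

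Of 32 small RNA and Argonaute genes tested, 2 were called higher (6.25%, near the 6.17% over all tested) and none lower. The Argonaute gene sago-2, which binds secondary small interfering RNAs, had 34.1, 34.5 and 30.1 normalized TPM against a median of 2.58 and a highest other strain of 22.2. The difference was 3.57, and all 3 cultures lay above every other strain. The microRNA Argonaute gene alg-1 had 20.3, 16.997 and 16.8 against a median of 10.4 and a highest value of 16.3, which culture 3 barely cleared. Within the code GZ_B8 the difference of alg-1 was 0.58, and ECA363 ranked 2 among the 25 strains. No other gene of this list was called, and the median over the 32 tested was -0.07.

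Genes of propionate breakdown and vitamin B12 metabolism held 1 call in each direction among 21 tested (4.76%, against 6.17% higher and 1.31% lower over all tested). The hydrolase gene hach-1, of the propionate shunt, had 156, 139 and 135 normalized TPM, below every other strain (187 to 702). The methionine synthase gene metr-1, whose enzyme uses vitamin B12, had 294, 196 and 190 against a median of 94.3 and a highest value of 219. Within the code GZ_B8 these differences were -1.07 and 0.71. Among UDP-glucuronosyltransferases, which conjugate foreign compounds, ugt-12 had 2.73, 2.61 and 3.099 against 4.39 to 40.1, and ugt-24 had 4.67, 4.99 and 5.11 against 0.319 to 1.76. The list of mitochondrial and endoplasmic reticulum chaperones had a single call, ckb-2, which encodes a choline kinase rather than a chaperone, at 2.24, 2.62 and 1.92 against 6.35 to 27.3. The single call among intestinal proteases was elt-7, a GATA transcription factor gene matched by the list, at 15.3, 11.7 and 9.18 against a median of 5.39.

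No member of the oocyte and eggshell list or of the germ line proliferation and meiosis list was called. The differences of all 29 oocyte and eggshell genes tested were negative, with a median of -0.33. Over all genes and elements tested, 6991 of 16445 were negative. The differences of 30 of 34 germ line genes were negative, with a median of -0.17, and those of 32 of 33 proteasome genes, with a median of -0.20 and no call. Of the 6 vitellogenin genes vit-4 was called lower (16.7%, against 1.31% over all tested), at 216, 282 and 271 normalized TPM against a median of 1004. The lowest other strain had 39.004. The other 5 yolk genes ran from -0.83 in vit-1 to 0.00 in vit-2. With the molting score as a covariate, the medians changed sign to 0.51 for oocyte and eggshell genes, 0.29 for germ line genes and 0.22 for proteasome genes.

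Of 29 major sperm protein genes, 1 was called higher (3.45%, against 6.17% over all tested) and 2 lower (6.9%, against 1.31%), with a median of 0.23. Of 55 other sperm genes 1 was called higher (1.82%, against 6.17% over all tested) and none lower. The differences of 48 were positive, against 9454 of 16445 over all tested, and the median of the 55 was 0.93. The score of the latter list ranked ECA363 48 among all strains and 1 among the 25 with the code GZ_B8, where the median difference was 1.52. With the molting score as a covariate the medians became -1.31 and -0.35. The sperm phosphatase gene gsp-3 differed by 1.46 and the sperm gene spe-9 by 0.86, and neither was called. The gene msp-74 had 113, 70.3 and 73.6 normalized TPM against a median of 0.383, yet another strain reached 155. The gene msp-3 had 5.98, 1.99 and 4.88 against a median of 113. The sperm gene nspd-8 had 258, 214 and 212 while the median strain was at 0, and 4 other strains were at or above ECA363. These families hold near-identical copies that share reads, so the values of single members are uncertain. Of 10 male tail, male neuron and seminal genes tested, 1 was called higher (10%, against 6.17% over all tested), the male ray gene ram-5. The median difference was 0.49, and the list score of ECA363 ranked 2 among all strains, after CX11254. The gene plg-1, which encodes a mucin of the copulatory plug, had 78.9, 92.1 and 80.1 normalized TPM against a median of 51.8, a difference of 1.84 that was not called. The genes pkd-2 and cwp-1, expressed in male neurons, were at or under 0.292 normalized TPM in every culture and were not tested, though ECA363 ranked 2 among all strains for pkd-2. The part of males in the sperm gene values was not tested.

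A search for genes near 0 in ECA363, under 0.1 normalized TPM in all 3 cultures with a median of the other strains of 1 or more, found 23 genes that were near 0 in no other strain, 20 that were near 0 in 1 to 5 others and 61 in more than 5. The same search gave from 2 to 156 genes in the other strains, with a median of 38, and ECA363 ranked 10. The reverse, at 1 or more in all 3 cultures where the median of the other strains was under 0.1, found 105 genes, more than in any other strain (2 to 82, median 21.5). Genes of the pud family were at or near 0 together on chromosome V. The gene pud-1.1 was at 0 in all 3 cultures and at least 494-fold lower than the median, and 42 other strains were near 0 as well. The sperm gene msd-2 was at 0 in ECA363, at least 83.1-fold lower than the median, and only MY10, MY16 and MY23 were likewise near 0. In the reverse group, oac-30 had 11.9, 4.82 and 7.20 normalized TPM against a highest other strain of 2.36.

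Some genes that differed lay next to each other. There were 12 runs of 3 or more neighbouring tested genes called in the same direction, and 3 when the genes had to lie beyond every other strain. The longest, of 6 genes on chromosome I (chrI:11449856-11480071), held the copies of ZK1025.2, ZK1025.3, bah-1 and the nuclear hormone receptor genes nhr-113 and nhr-245, with differences from 1.72 to 4.85. The copies of ZK1025.2 have identical values and so repeat 1 measurement, as do those of hsp-16.48 in another run. ZK1025.2 reached 17.15 normalized TPM in another strain. It was at 1 or more in all cultures of 7 other strains, among them ECA812, JU1586, XZ1515 and CX11254. ZK1025.3 had 47.8, 15.3 and 21.2 normalized TPM against a median of 0.210. The second run, of 5 genes on chromosome V (chrV:16272673-16292154), was centred on cyp-37B1, and its 4 other members differed by 0.70 to 1.23 at levels of at most 1.59 normalized TPM. Another run, on chromosome II (chrII:4127837-4173498), joined ast-1, F56D3.1, R03H10.2 and R03H10.6.

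A region of 31.3 kb on chromosome II (chrII:9375845-9407120) held differences in both directions and was picked out after the values were seen. There, 8 of 14 tested genes lay beyond every other strain mean, 2 above and 6 below, against 0.87% and 0.602% over all tested. The ends of the region were set by such genes. Of the 8, mpz-6, C06C3.10 and C06C3.9 were not called, and C06C3.10 and C06C3.9 overlap each other. The gene lido-17 had 18.3, 20.0 and 17.6 normalized TPM against a highest other strain of 3.297, and mpz-6 had 9.39, 7.46 and 8.12 against 6.83. At lower coordinates than lido-17, C06C3.10, C06C3.9, C06C3.11 and C06C3.5 had no counts in any ECA363 culture, which makes the first 3 at least 6.46-, 5.73- and 5.37-fold lower than the medians of the other strains. The gene srh-48 had 1 count in all and overlaps C06C3.5, and as the libraries do not keep the strand, their reads cannot be told apart. C06C3.7, between srh-48 and lido-17, had 0.0902, 0.189 and 0.0622 normalized TPM and ECA363 was second from the bottom.

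**Figure D5:**
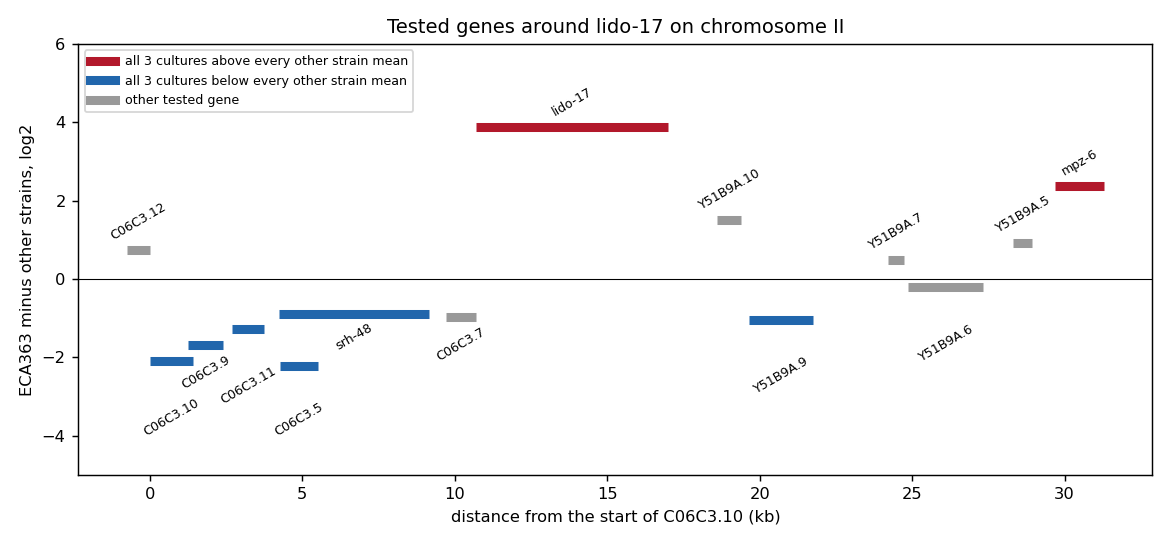
Tested genes around lido-17 on chromosome II, drawn to scale by distance from the start of C06C3.10 (horizontal axis, kb) and by the difference of ECA363 from the other strains (vertical axis, log2). lido-17 and mpz-6 (red) lie above every other strain in all 3 cultures, 6 genes (blue) lie below, and the grey genes overlap the other strains.

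Of the transposable elements tested, 9 were called higher and 1 lower (8.65% and 0.962%, against 6.17% and 1.31% over all tested). The median difference of the elements was 0.14. Mariner3, a DNA transposon, had 2.22, 2.35 and 3.25 normalized TPM against a highest other strain of 1.85, and the difference was 2.33. The long terminal repeat element CER8 had 0.527, 0.328 and 0.156 against 0.623 to 11.6, with a difference of -2.04. The DNA transposon MIRAGE1 was at 0.0120, 0.0227 and 0.0105 against a lowest other strain of 0.115, but its spread among strains was wide and it was not called. The elements are consensus sequences, so reads of related copies add up in them.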

How the data were processed

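The authors trimmed reads with fastp 0.20.0 and pseudoaligned them with kallisto 0.44.0 (versions per the submitters' processing notes) to WS276 transcriptomes carrying each strain's single-nucleotide variants. The deposited tables hold estimated counts and raw TPM per transcript, and neither was normalized by the authors. Transcripts were assigned to genes of the Ensembl WBcel235 annotation, 58525 by identifier and 6635 by sequence name, and 13 were left out. Values were summed per gene. Genes with at least 5 normalized counts in all cultures of at least 10 strains were kept, of which 15596 were protein-coding genes, 745 pseudogenes and 104 elements. TPM was divided by median-ratio factors over 11227 genes, and log2(normalized TPM + 0.5) was averaged within each strain. Limma 3.58.1 with a trend compared the ECA363 mean with 206 strain means. The fit was tested on simulated data. Alternatives used edgeR 4.0.16 (counts rounded and summed per strain) and DESeq2 1.42.0 (selection of cultures), in R 4.3.3 and Python 3.11.15.

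The members and the 41 gene lists were chosen with earlier results of these data known. Named genes were the 15 highest and 15 lowest called genes beyond every other strain, 2 per list by size of the difference among the 10 highest or lowest strains, the 20 near 0 with the highest medians and, for the reverse, the 20 with the highest ECA363 levels, the genes of the 3 longest runs, up to 6 elements and 6 markers. Not all are described. Others were named after their values were seen. For genes near 0, strain means were first taken as arithmetic means, and the log2 means of the other tests replaced them after the counts had been seen. Overlapping genes share reads, since the library kit does not mark strand.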

Additional observations from a re-analysis of the deposited data

Results flagged for a closer look

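Outside the tested kinds of gene, 12 of 24812 listed non-coding genes had at least 1 normalized TPM in every ECA363 culture and lay above every other strain mean in all 3. They drew attention because they belong to data that no comparison above uses. The lowest of the 3 cultures was at 130.6 normalized TPM in T23B12.14, 36.61 in the antisense gene anr-5, 16.69 in K06A4.15, 8.352 in C05D2.11, 4.291 in F08F1.19, 3.553 in F40F4.9, 2.392 in linc-22, 1.75 in the microRNA gene cel-mir-4938, 1.716 in K06A1.10, 1.56 in R06C1.12, 1.384 in F13H8.14 and 1.057 in M01E10.4. T23B12.14 only just cleared its highest other strain, at 127.8. F08F1.19, F40F4.9, K06A1.10, cel-mir-4938, F13H8.14, M01E10.4 and R06C1.12 rested on 1 to 5 estimated counts in a culture. With arithmetic strain means 7 genes met the same criteria. Poly(A) selection captures such transcripts only in part, and without strand information reads of an antisense gene cannot be told apart from those of its partner.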

How the results depend on the processing

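No paired analysis was possible by replicate number, because the labels give none that pairs cultures of different strains, but they give the sequencing pool of each. Within the pools of the ECA363 cultures, each centred on its median, 789 were called higher and 148 lower. The causes of the shifts below were not tested, except where fewer genes or strains were tested. Against 1015 higher and 215 lower calls, higher calls numbered 662 with a pseudocount of 0.1, 1788 without the filter, 264 with TMM and 427 with edgeR. Higher and lower calls were 57 and 111 at a mean TPM of at least 5, 536 and 140 in the year of the ECA363 cultures only, and 2478 and 482 with sperm, yolk and embryo scores as covariates. Leaving out an ECA363 culture gave 621 to 1364 higher and 180 to 257 lower calls, and leaving out a culture of each other strain 629 to 819 and 146 to 175. Chosen after seeing the data, the molting covariate gave 560 and 399, and the code GZ_B8 138 and 63. Genes above and below every other strain (143 and 99) were 25 and 58 at a mean TPM of at least 5. Within the code they were 684 and 234, but there only 24 other strain means had to be passed. Without 1 ECA363 culture 174 to 302 lay above. Genes among the 10 highest numbered 836 at a mean TPM of at least 5, and the 10 lowest 593 with raw TPM. Among the 25 strains of the code these were 8745 and 6012. Near 0 were 167 genes at a limit of 0.5 and 32 with a median of at least 5, and the reverse 516 and 18. Arithmetic strain means, replaced after both counts were seen, gave 113 genes near 0, including all of those counted in the report, and 99 for the reverse, all among its 105. Runs numbered 3 by non-overlap. The distance rank stayed at 2.

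With the molting covariate these differences changed sign: egg-4 0.20, mbk-2 0.0715, col-138 -0.32, col-73 -0.54, grl-16 -0.80, egl-3 -0.21, ida-1 -0.30, myo-3 -0.22, tni-3 -0.33, pas-5 0.10, pas-2 0.0694, unc-54 -0.39, ges-1 -0.12 and rab-3 -0.20. The near-zero difference of col-19 became 0.0482 with raw TPM, 0.0129 without ECA363 replicate 1 and 0.16 with the 3 scores. That of vit-2 became -0.075 with TMM, -0.0197 with the study's selection of cultures, -0.086 within pools, -0.0031 in the year of the ECA363 cultures, -0.0032 without NIC258 and CX11254, -0.0373 to 0.038 without 1 ECA363 culture, -0.037 and -0.0001 without replicates 1 and 3 of the other strains, -0.12 within the code and -0.16 with edgeR. Of 3163 values of named genes under alternatives, 2826 kept direction and call, 245 lost the call, 65 gained it and 27 changed direction.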

Other observations

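Among groups not described above, nuclear hormone receptors, the ligand-regulated transcription factors that are numerous in nematodes, had 17 of 187 tested members called higher (9.09%, against 6.17% over all tested) and 2 lower (1.07%, against 1.31%), with a median difference of 0.32. ECA363 was among the 10 highest strains for 65 of them (34.8%, against 19.1%). The receptor gene nhr-63 had 6.20, 3.42 and 2.93 normalized TPM against a median of 0.490 in the other strains, and nhr-181 had 0.305, 0.250 and 0.476 against a median of 3.81. With the molting score as a covariate the median of the list was -0.10. F-box A genes, adaptors of ubiquitin ligases, had 9 called higher (7.32%, near the 6.17% over all tested) and 7 lower (5.69%, against 1.31%). The gene fbxa-166 had 5.2006 and 6.88 in cultures 1 and 2, above the highest other strain at 4.31, while culture 3 overlapped, and fbxa-211 was at 0 in all 3 cultures, at least 51.9-fold lower than the median.

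Histone genes were called 6 times higher and 4 times lower among 73 tested (8.22% and 5.48%, against 6.17% and 1.31% over all tested), with a median of 0.16, and near-identical copies make single members uncertain. The copy his-47 (F54E12.5) had 2.52, 3.02 and 4.51 normalized TPM against a lowest other strain of 9.53. Of 84 cytosolic ribosomal protein genes 77 were lower in ECA363, with a median of -0.12. The 1 call, rpl-37 (1.19%, against 6.17% over all tested), was higher at 7.01, 11.85 and 12.929 against a highest other strain of 6.36. Raw TPM brought the median of the ribosomal genes to -0.01.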
